A study of Caenorhabditis elegans with 2 samples.

Results

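The regions described here are the 282 peaks on the X chromosome among the 1102 peaks that chromatin immunoprecipitation of ETS-4-GFP gave in whole Caenorhabditis elegans young adults. They were chosen by position alone, as every region of the deposited IDR list that lies on X. IDR, the irreproducible discovery rate, scores how alike replicate experiments rank their regions. Single peaks of this list can still rank far apart in the replicates, as described further on. The remaining 820 peaks lie on the 5 autosomes. The data came from 1 group of 2 biological replicates, with no contrast between conditions. The worms were mixed-sex young adults of strain RAF1713, 73 h old and synchronised as starved L1 larvae after bleaching. They carried rrrSi400, an insertion on chromosome II that holds the ets-4 promoter, the ets-4 gene fused to GFP, the ets-4 3' UTR and a rescuing unc-119 gene, in an unc-119(ed3) background. The labels' description names an anti-GFP antibody and their antibody field names ets-4. Worms without the tag and control reads were not analysed here. Because whole worms were used, a site occupied in few cells and a site weakly occupied in many cannot be told apart.

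ETS-4 is a transcription factor of the ETS family, which binds DNA around a GGA core, and in the worm it is known for roles in lifespan, fat storage and the regrowth of cut axons. The X chromosome differs from the autosomes in that hermaphrodites carry a pair of copies and males a single one. In hermaphrodites the dosage compensation complex, a condensin-like assembly, is recruited to X at sites that hold a motif called MEX (motif enriched on X) and lowers transcription along the chromosome. X is poor in genes expressed in the germ line and rich in tRNA genes, which RNA polymerase III transcribes from promoter elements, the A box and the B box, inside the gene itself. The sexes were pooled in each replicate, and the share of males is not given in the sources used here.

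The strongest X peak and 3 others that hold words described further on are shown first, as the summit and 50 bp to either side on the plus strand of the RefSeq genome (WBcel235, the same assembly as ce11). The search covered 10 words on both strands, and capitals mark them. They were the ETS-type words CCGGAA, its variant with a different last base CCGGAT and the overlapping word CGGAAG, the GATA-type words TGATAA and, with another base at its start, AGATAA, the E-box CACGTG, the forkhead word GTAAACA, the repeat GAGAGAGA, the MEX core GCGCAGGG and the B-box word GTTCGANNC. The summit upstream of serp-1.1 is the strongest on X and holds none of the 10. The summit upstream of jmjd-3.1 holds an ETS-type and a GATA-type word, that of ets-4 a GATA-type word, and that of ins-39 an ETS-type word and the MEX core.
serp-1.1, chrX:15841247-15841347: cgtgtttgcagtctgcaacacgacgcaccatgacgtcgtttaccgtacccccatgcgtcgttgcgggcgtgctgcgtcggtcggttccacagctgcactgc
jmjd-3.1, chrX:8567319-8567419: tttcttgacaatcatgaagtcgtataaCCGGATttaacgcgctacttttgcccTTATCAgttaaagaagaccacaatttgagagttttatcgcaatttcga
ets-4, chrX:6518647-6518747: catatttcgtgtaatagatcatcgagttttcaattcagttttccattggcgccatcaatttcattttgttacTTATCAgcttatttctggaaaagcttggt
ins-39, chrX:1344991-1345091: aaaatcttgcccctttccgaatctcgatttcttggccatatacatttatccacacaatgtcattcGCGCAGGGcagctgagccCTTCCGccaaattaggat

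The MEX core lay within 50 bp of the summit in 9 X peaks, in 12 copies. Each copy is given with 16 bases to either side, 5' to 3' on the strand that reads GCGCAGGG, and capitals mark the core. A gene name alone is that of the nearest 5' end. The copies are shown because this word separated X from autosomal peaks, as described further on.
mom-1 intron, plus strand, chrX:6296532-6296571: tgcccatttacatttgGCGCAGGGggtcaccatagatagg
mom-1 intron, plus strand, chrX:6296560-6296599: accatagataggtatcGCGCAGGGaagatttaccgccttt
W02H3.3, minus strand, chrX:11094210-11094249: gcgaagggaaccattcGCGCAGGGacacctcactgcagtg
ins-39, plus strand, chrX:1345040-1345079: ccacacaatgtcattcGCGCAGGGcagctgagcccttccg
nspc-17, minus strand, chrX:14525884-14525923: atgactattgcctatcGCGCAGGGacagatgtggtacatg
upstream of xol-1, minus strand, chrX:8036385-8036424: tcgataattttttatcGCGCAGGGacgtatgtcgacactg
upstream of xol-1, plus strand, chrX:8036419-8036458: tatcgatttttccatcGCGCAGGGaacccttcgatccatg
F20B6.9, minus strand, chrX:4209250-4209289: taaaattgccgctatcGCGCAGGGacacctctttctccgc
Y41G9A.17 intron, minus strand, chrX:2997107-2997146: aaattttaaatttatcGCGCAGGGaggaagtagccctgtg
gtr-1, plus strand, chrX:806658-806697: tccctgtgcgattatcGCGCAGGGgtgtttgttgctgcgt
gtr-1, plus strand, chrX:806734-806773: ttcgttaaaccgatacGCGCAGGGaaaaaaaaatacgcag
WBGene00020828, plus strand, chrX:1837876-1837915: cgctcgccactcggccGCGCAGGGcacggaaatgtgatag

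Peaks beside tRNA genes made up a larger share on X than on the autosomes, with shares per gene given further on. A tRNA gene at each of the 3 strongest such peaks is given 5' to 3' on the strand of the gene, with the B-box word in capitals. The peak of F15G9.t1 also lies beside F15G9.t2, whose 5' end is nearer to the summit and which is not shown. The peak of C18A11.t2 does not overlap the gene, and its summit lies 310 bp from the 5' end, past the gene. A weaker peak beside C18A11.t2, with its summit 110 bp from the 5' end, is counted as well. The 3 genes were picked after the peaks' values were seen.
C04A11.t1 (tRNA-Leu), plus strand, chrX:13665555-13665673: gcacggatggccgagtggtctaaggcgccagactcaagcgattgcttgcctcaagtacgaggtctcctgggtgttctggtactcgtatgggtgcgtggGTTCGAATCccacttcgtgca
C18A11.t2 (tRNA-Arg), minus strand, chrX:8036685-8036757: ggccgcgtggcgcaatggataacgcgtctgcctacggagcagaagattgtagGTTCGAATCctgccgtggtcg
F15G9.t1 (tRNA-Ala), plus strand, chrX:9743589-9743660: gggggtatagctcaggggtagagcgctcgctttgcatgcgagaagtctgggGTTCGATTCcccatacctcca

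X held 25.6% of all IDR peaks (95% Wilson interval 23.1 to 28.2%), while it makes up 17.7% of the genome's length and carries 13.7% of the 19973 protein-coding genes. This came to 15.9 peaks per Mb on X, against 8.52 to 11.8 per Mb on the autosomes. The pooled list deposited before the IDR filter holds 30000 candidate regions, peaks and background together, of which 6085 lie on X, or 20.3%. Of all pooled candidates, 3.67% were kept in the IDR list. For this share, kept candidates were counted as the 1102 of highest pooled signal. These were 282 on X and 820 on the autosomes, the same numbers as in the IDR list. The kept share thus compares pooled signal and does not measure agreement between the replicates. The kept share was 4.63% on X (4.13 to 5.19%), against 3.43% on the autosomes, with an odds ratio of 1.37 and a 95% interval of 1.19 to 1.57; the two-sided exact test of Fisher gave p = 1.32e-05. Among the autosomes the share was highest on I, at 3.81%, and lowest on V, at 2.98%. Each replicate's own list gave a share close to this: of its 1102 strongest regions, 270 were on X in replicate 1 (24.5%) and 278 in replicate 2 (25.2%). Without candidates within 200 bp of a tRNA gene, an alternative added after seeing the data, the kept share was 4.03% on X and 3.31% on the autosomes (odds ratio 1.22, p = 0.00845, Fisher's exact test). Regions that lie close together are not independent, and every p-value between X and autosomal regions in this text counts regions as if they were.

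**Figure D1:**
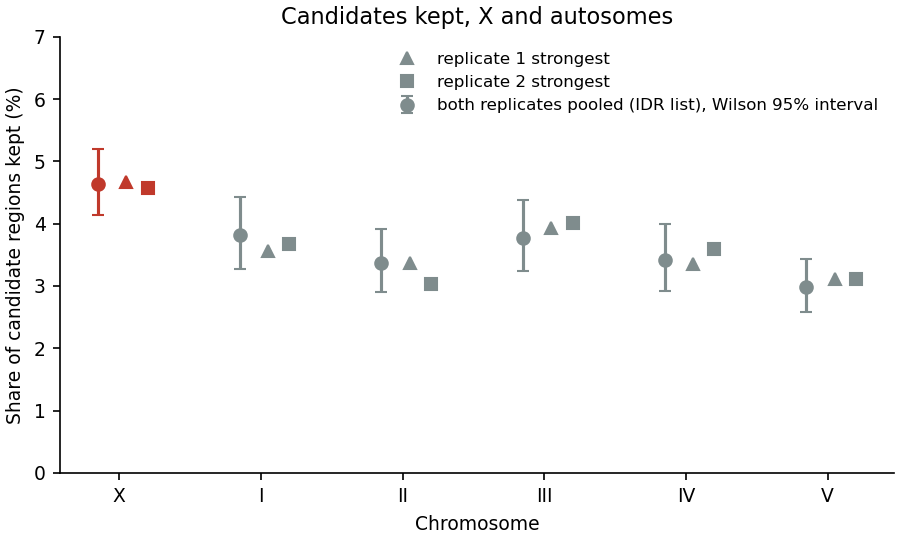
Share of candidate regions kept (%, vertical axis) on each chromosome (horizontal axis, X in red, autosomes in grey). Circles are the IDR list over the pooled candidates with Wilson 95% intervals; triangles and squares are the 1102 strongest regions of replicate 1 and replicate 2 over that replicate's own candidates. All 3 values for X, 4.63, 4.66 and 4.56%, lie above those of every autosome.

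The signal of a peak is the peak caller's own value and is not scaled between lists. Over the 282 X peaks the pooled signal ran from 79.5 to 428.6 with a median of 104.8, and over the 820 autosomal peaks from 79.4 to 429.9 with a median of 101.6. The stronger 551 of the 1102 peaks included 154 of the X peaks (54.6%) and 397 of the autosomal peaks (48.4%), a difference that did not pass the test (odds ratio 1.28 with an interval of 0.968 to 1.70, p = 0.0843 by Fisher's exact test). X supplied 3 of the 10 strongest peaks in the genome and 25 of the 100 strongest. The X peaks just inside the end of the IDR list, near fkh-9, ser-2 and pqn-65, had signals of 79.9, 79.5 and 79.5. The X candidates just outside it, at Y71H10B.1, nhr-35 and inso-1, had 79.4, 79.2 and 79.2.

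The strongest X peak, 275 bp upstream of serp-1.1, had a pooled signal of 428.6; its signal was 195.0 in replicate 1 and 230.6 in replicate 2, where it ranked 1 and 4 over all candidates of those lists. The peak 6 bp upstream of hsp-3, an endoplasmic reticulum chaperone of the BiP type, had a signal of 295.9 and ranked 5 and 19. Another strong peak lay 3678 bp upstream of jmjd-3.1, a histone H3 lysine 27 demethylase, with a signal of 287.9 and ranks of 7 in replicate 2 and 19 in replicate 1. These 3 peaks ranked 2, 8 and 10 in the whole IDR list. They stood among the 19 highest regions of each replicate. Pairs of ranks in the rest of this text give replicate 1 before replicate 2.

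Further promoters among the 30 strongest X peaks served a range of cell functions. The peak at sem-5, the adaptor of receptor tyrosine kinase signalling related to GRB2, lay 662 bp upstream with a signal of 228.7. That at trap-2, a subunit of the translocon-associated complex of the endoplasmic reticulum, lay 156 bp upstream with 202.4, and that at epn-1, an epsin of endocytosis, 462 bp upstream with 193.2. The nuclear hormone receptor gene nhr-35 had a peak 320 bp upstream with 177.3, and cebp-1, a bZIP factor needed for axon regrowth, one 660 bp upstream with 164.1. Both replicates ranked each of these 5 between 20 and 136 in their own lists. Other promoter peaks among the 30 were at sym-4 (219.9), spat-3 (201.6), F17H10.1 (188.3), R04E5.9 (167.1) and T13C5.6 (161.9). At tatn-1, which encodes tyrosine aminotransferase, the replicates were far apart: the peak ranked 27 in replicate 1 and 579 in replicate 2. Several strong peaks lay outside promoters, among them one 5014 bp upstream of bcat-1, a branched-chain amino acid aminotransferase, with a signal of 228.5, one in an exon of hpo-34 with 199.9, one in an exon of the polyketide synthase gene pks-1 with 163.4, and one in an intron of F09A5.3 within 200 bp of the microRNA gene mir-54, with 190.8. Exon peaks of ccdc-149 and F39D8.3 had 181.2 and 173.0, and intergenic peaks nearest to K02D3.1 and F55G7.5 had 178.1 and 174.8.

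The gene for the tagged factor itself lies on X and held the densest run of peaks. In chrX:6518512-6523007 there were 5 peaks, over ets-4 and into ceh-60, with summits spanning 4126 bp. The strongest, 186 bp upstream of ets-4, had a signal of 206.6; it had 110.3 in replicate 1 and 99.6 in replicate 2. Those within ets-4 had 116.7 in an intron and 121.0 and 91.8 in exons, and that in an exon of ceh-60 had 97.3. The replicates ranked the last of the ets-4 exon peaks 115 and 2609, and the ceh-60 peak 6860 and 257, in opposite directions. Reads from the ets-4 sequence of the insertion on II cannot be told apart from those of the same sequence on X. The summit of the ceh-60 peak lies outside the ets-4 gene, and the parts listed for the insertion name no ceh-60 sequence. Without the ets-4 locus, also added after seeing the data, the kept share on X was 4.56%, with an odds ratio of 1.35 against autosomes.

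Outside this locus the X peaks were spread along the chromosome. Bins of 1 Mb held 5 to 26 peaks, with a median of 16. The bin from 6 to 7 Mb, which holds ets-4, had 26 peaks and the one from 11 to 12 Mb had 25. The outermost bins had the fewest, 7 at the left end and 5 at the right end, where the last bin is shorter. In all, 41 X peaks (14.5%) stood within 2000 bp of another, in 18 groups, against 134 autosomal peaks (16.3%). The next largest groups held 3 peaks each, within abts-4 and at pab-2, a poly(A)-binding protein gene. The median spacing between neighbouring summits was 39324 bp on X and 56625 bp on the autosomes.

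By summit position, 102 X peaks lay in promoters (36.2%), 22 in exons (7.80%), 66 in introns (23.4%) and 92 between genes (32.6%). A promoter here runs from 1000 bp upstream to 200 bp downstream of a protein-coding 5' end, and a summit gets the promoter class before the others. The autosomal peaks had 40.6% in promoters, 9.39% in exons and 25% each in introns and between genes. None of the 4 differences passed the test after adjustment; the nearest was the intergenic share, whose odds ratio was 1.45 with an interval of 1.07 to 1.97 (p = 0.0158 and adjusted p = 0.0630 by Fisher's exact test). X sequence is itself more intergenic, at 32.3% of X bases against 23.5% of autosomal bases. Without peaks within 200 bp of a tRNA gene, also added after seeing the data, the intergenic odds ratio was 1.103. With a wider promoter, 2000 bp upstream to 500 bp downstream, X had the smaller promoter share (odds ratio 0.668, adjusted p = 0.00725) and the larger intergenic share (odds ratio 1.75, adjusted p = 0.00482), both past the threshold of 0.05 in Fisher's exact test. Set against the 36.2% of X peaks, 17.6% of X bases and 19.8% of the X candidates outside the IDR list were in the promoter class. The median distance to the nearest 5' end was 1300 bp on X and 1053 bp on the autosomes. Peaks shared by more than 1 promoter made up 7 of the 102 X promoter peaks (6.86%) and 78 of the 333 autosomal ones (23.4%), given as counts with no test. How much promoter sequence of X and of the autosomes lies in more than 1 promoter is not given here, so these shares have no background.

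Peaks at tRNA genes made up a larger share of the peaks on X than on the autosomes, with no account taken of gene number. Of the X peaks, 45 (15.96%) lay within 200 bp of a tRNA gene, against 36 autosomal peaks (4.39%), with an odds ratio of 4.13 and an interval of 2.54 to 6.76 (adjusted p = 5.15e-09 by Fisher's exact test). Peaks beside other small RNA genes (snoRNA, snRNA, rRNA and microRNA) went the other way, with 4 on X (1.42%) and 91 on the autosomes (11.1%), an odds ratio of 0.115 with an interval of 0.0305 to 0.310 (adjusted p = 2.25e-08 by Fisher's exact test). Both differences were present in each replicate's own strongest regions: 11.5% of X against 2.88% of autosomal regions lay beside tRNA genes in replicate 1, and 16.5% against 4.13% in replicate 2.

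**Figure D2:**
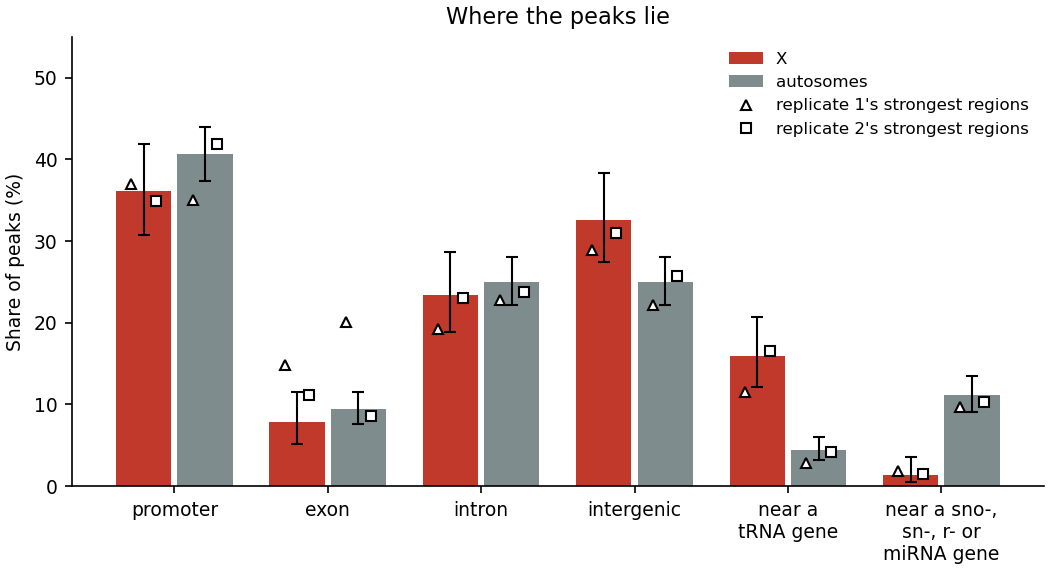
Share of peaks (%, vertical axis) in each location class and within 200 bp of a tRNA gene or of another small RNA gene, for X (red bars) and the autosomes (grey bars), with Wilson 95% intervals. Open triangles and squares are the same shares in the 1102 strongest regions of replicate 1 and replicate 2; the tRNA share was 15.96% on X and 4.39% on the autosomes, and the other small RNA share was 1.42% and 11.1%.

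How many such genes each part of the genome has bears on these shares. X carries 276 annotated tRNA genes and the autosomes together 336, and snoRNA genes number 33 on X and 313 on the autosomes. The other kinds are mostly autosomal too, with 3 snRNA, 0 rRNA and 74 microRNA genes on X. The autosomes have 126, 20 and 187 of these. Counted per gene, 52 of the 276 X tRNA genes had an IDR peak within 200 bp (18.8%, Wilson 14.7 to 23.9%), and 43 of the 336 autosomal ones (12.8%, 9.64 to 16.8%). For snoRNA genes the shares were 3 of 33 on X (9.09%, 3.14 to 23.6%) and 72 of 313 on the autosomes (23.0%, 18.7 to 28.0%). For both gene kinds the intervals of X and the autosomes overlap, and the per-gene difference was not tested. The only X microRNA gene of 74 with a peak was mir-54. Many tRNA genes have near-identical copies, so reads may have been placed at another copy; this was not tested.

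Most of the tRNA peaks were centred on the genes. In 42 of the 45 the summit lay within 100 bp of a tRNA gene's 5' end, with a median of 12 bp inside the gene. They covered 18 isotypes, led by alanine with 6 peaks, and by glutamate and glycine with 5 each. An isotype was annotated for 273 of the 276 X tRNA genes. Their median signal, 105.9, was close to the 104.4 of the other X peaks. Both replicates had 21 of the 45 among their strongest 1102 regions (46.7%), against 132 of the 237 other X peaks (55.7%). The strongest, at C04A11.t1 for leucine, had a signal of 203.6 and ranked 258 in replicate 1 and 18 in replicate 2. F15G9.t1 and F15G9.t2 for alanine share a peak of 163.4 in an intron of him-4, the hemicentin gene, ranked 89 and 138, and F41D9.t3 for asparagine had 148.1, ranked 67 and 334. Most of these peaks were intergenic (27) or in introns (12), and 5 lay in promoters and 1 in an exon of protein-coding genes.

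**Figure D3:**
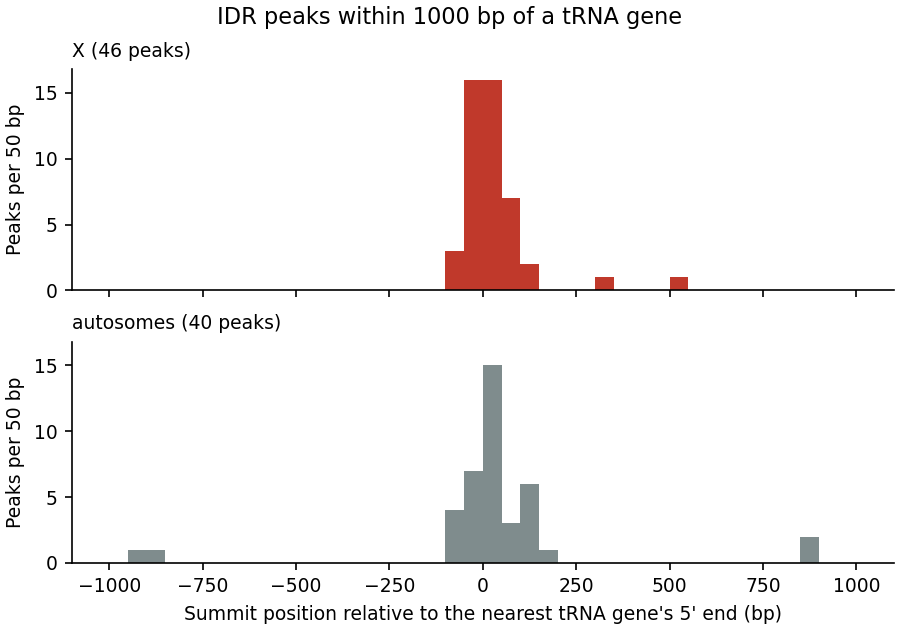
Peaks per 50 bp (vertical axis) by the position of the summit relative to the 5' end of the nearest tRNA gene (horizontal axis, bp, positive values inside or past the gene), for the 46 X peaks (top) and 40 autosomal peaks (bottom) within 1000 bp. In both panels most summits lie within 100 bp of the gene's 5' end.

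At the summits, the MEX core was the only one of the 10 words whose share passed the test between X and the autosomes. The words were chosen with earlier results of these data known, which the adjustment over 10 words does not cover. GCGCAGGG lay within 50 bp of 9 X summits (3.19%) and of 1 autosomal summit (0.122%), at sma-2 on III with a signal of 85.5; the odds ratio was 26.9, with a wide interval of 3.70 to 1185 (adjusted p = 0.000331 over 10 words by Fisher's exact test). The size of this ratio rests on few regions: it was 67.1 in the strongest regions of replicate 1 alone, where no autosomal region held the core and 0.5 was added to each count, and 16.9 in those of replicate 2 alone. None of the 282 windows centred 300 bp to the right of the X summits held it (Wilson upper bound 1.34%). Among all windows of the same length it occurred in 0.0388% on X and 0.0263% on the autosomes. So rare a word would seldom be found in 282 windows, so its absence beside the summits says little. Among the candidates outside the IDR list it occurred in 0.121% on X and 0.0566% on the autosomes. X as a whole has 81 copies: 17 lay whole within 14 IDR peaks and 64 did not. The bases TC stood directly before 10 of the 17 copies inside peaks (58.8%) and before 9 of the other 64 (14.1%). The autosomes have 233 copies, 3 of them inside peaks and none of those preceded by TC.

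The 9 peaks with the core near the summit were strong ones, with a median signal of 172.2 against 104.8 over all X peaks, and 8 of the 9 were among the strongest 1102 regions of both replicates. The peak in an intron of mom-1, a gene for Wnt secretion, had 225.1 and ranked 24 in replicate 1 and 36 in replicate 2. An intergenic peak nearest to W02H3.3 had 197.0 and ranked 91 and 45, and that 620 bp upstream of ins-39, an insulin-like peptide gene, had 179.0 and ranked 97 and 70. The peak 704 bp upstream of nspc-17 had 176.2, the one 4866 bp upstream of xol-1, the switch gene of sex determination and dosage compensation, had 172.2, and that near F20B6.9 had 160.3. The 3 weakest were one in an intron of Y41G9A.17 with 136.3 and intergenic ones nearest to gtr-1 with 131.5 and to WBGene00020828 with 94.3. The replicates ranked the last peak 2854 and 527, so it was outside the strongest regions of replicate 1. The peak upstream of xol-1 also lies within 200 bp of the tRNA gene C18A11.t2, and a weaker X peak with a signal of 83.6 stands 200 bp from it; both overlap the same region in each replicate's list. These signals were not compared by a test, and a word is a description of sequence, not of a bound factor.

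None of the ETS-type words passed the test between X and the autosomes. CCGGAA lay near 10 X summits (3.55%) and 31 autosomal ones (3.78%), and in 13 of the windows 300 bp from the X summits. CGGAAG lay near 9 X and 20 autosomal summits, and in 15 of the windows beside the X summits. CCGGAT lay near 6 X summits (2.13%) and 12 autosomal ones, and in 2 of the windows beside the X summits (0.709%). Any of the 3 ETS-type words was found at 17 X summits (6.03%) and 52 autosomal summits (6.34%). The GATA-type word TGATAA, known as the site of gut GATA factors such as ELT-2, was the commonest, at 66 X summits (23.4%) and 232 autosomal ones (28.3%; adjusted p = 0.375, Fisher's exact test); it lay in 34 of the X windows beside the summits (12.1%) and in 9.96% of all X windows. The other GATA-type word, AGATAA, lay near 22 X summits (7.80%) and in 29 of the windows beside them (10.3%). CACGTG lay near 16 X summits (5.67%) and in 4 of the windows beside them (1.42%). The B-box word lay near 13 X summits, and 12 of these were beside tRNA genes. None of the 10 words was found at 152 X summits. X summit windows averaged 47.3% G and C, the windows beside them 34.1% and X as a whole 35.2%.

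**Figure D4:**
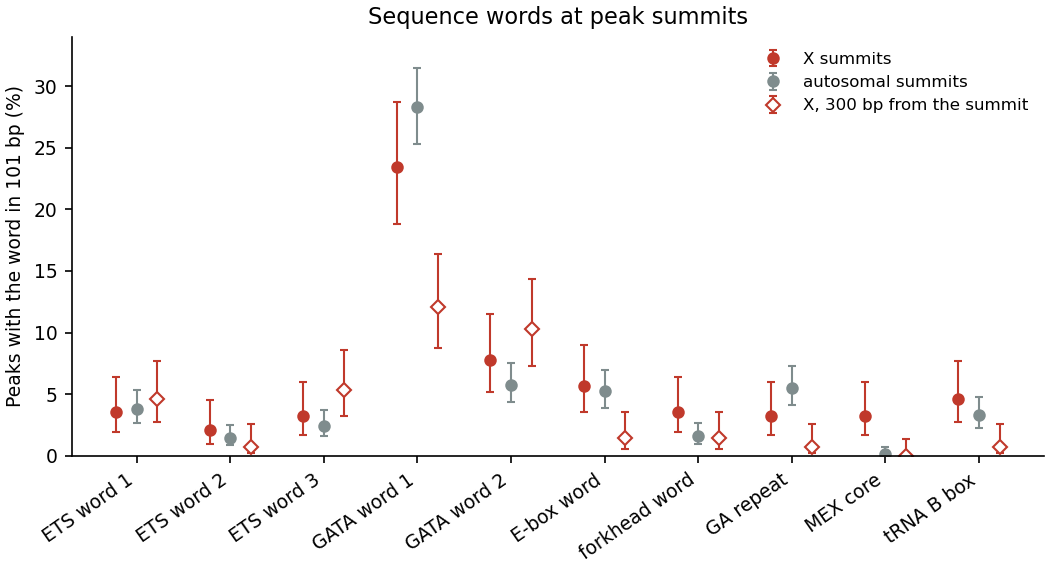
Share of peaks with each word within 50 bp (%, vertical axis), of X summits (red circles), of autosomal summits (grey circles) and of points 300 bp to the right of the X summits (open red diamonds), with Wilson 95% intervals. The first ETS word plotted is CCGGAA, followed to its right by the variant CCGGAT and then by the overlapping word CGGAAG, and the first of the GATA words is TGATAA. The MEX core stands at 3.19% on X and 0.122% on the autosomes.

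Support by the replicates did not pass a test between X and autosomal peaks. The strongest 1102 regions of replicate 1 overlapped 195 X peaks (69.1%) and 543 autosomal peaks (66.2%), and those of replicate 2 overlapped 225 (79.8%) and 662 (80.7%). Both overlapped 153 X peaks (54.3%) and 424 autosomal peaks (51.7%); the odds ratio was 1.11 with an interval of 0.837 to 1.47 (adjusted p = 0.728 by Fisher's exact test). Of the other X peaks, 42 were among the strongest regions of replicate 1 only, 72 of replicate 2 only and 15 of neither. Across peaks, the signals of the replicates had a Spearman rho of 0.290 on X (n = 282) and 0.279 on the autosomes (n = 817), over regions already picked for a high pooled signal. The ranks in the replicates' own lists were within a factor of 2 for 124 X peaks.

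The X peaks with the largest gap between the replicates lay in both directions. At nmat-1, for an enzyme of NAD synthesis, the peak ranked 28776 in replicate 1 and 270 in replicate 2, and at nhr-3, a nuclear hormone receptor gene, 7283 and 137. The peaks near hrpa-2 and lrch-1 ranked 17284 and 14539 in replicate 1, against 213 and 497 in replicate 2. The other way, the peak 586 bp upstream of pfn-2, a profilin gene, ranked 177 in replicate 1 and 6743 in replicate 2, and those near tps-1, for trehalose synthesis, and F56C3.10 ranked 59 and 42 in replicate 1, against 1107 and 729 in replicate 2.

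**Figure D5:**
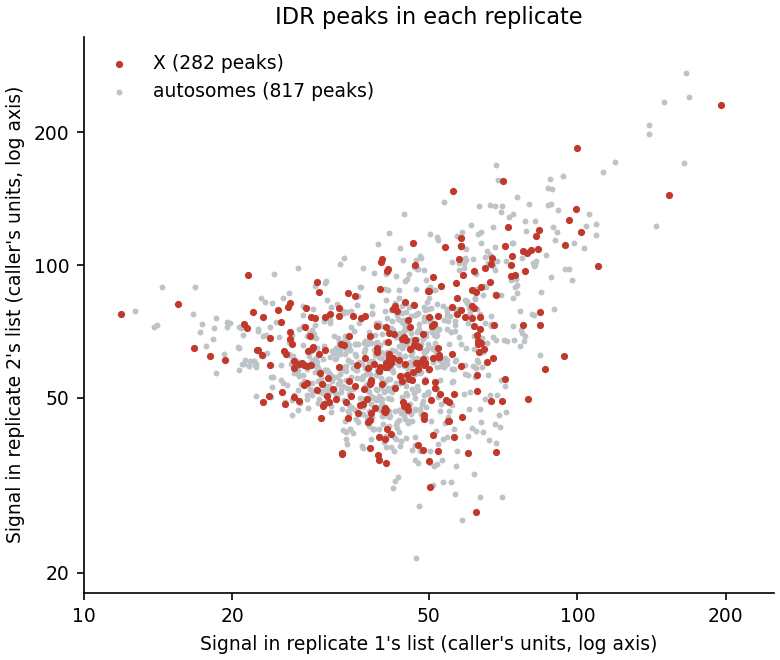
Signal of each IDR peak in the list of replicate 1 (horizontal log axis) and of replicate 2 (vertical log axis), in the caller's units, for the 282 X peaks (red) and the 817 autosomal peaks present in both lists (grey). X peaks lie within the cloud of autosomal peaks, with a Spearman rho of 0.290 on X and 0.279 on the autosomes.

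Among the 2731 protein-coding genes of X, 109 had an IDR peak in the promoter (3.99%), against 409 of 17242 autosomal genes (2.37%). With the gene body and 5000 bp upstream included, 322 X genes had a peak (11.8%), against 7.60% of autosomal genes. The gene lists are described by counts beside these shares, and most have too few X members to say more.

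Of the 11 X genes of the intestine list, 3 had a peak in the promoter and 6 had one with body and upstream sequence included. The promoter peaks were at pept-1, the peptide transporter of the gut lumen, with a signal of 149.8 and replicate ranks of 196 and 174, at elt-2, the main GATA factor of the gut, with 114.4 and ranks of 1095 and 280, and at spp-5, a saposin-like protein gene, with 92.0 and ranks of 3032 and 674. Peaks nearer to other genes, or in the body, were assigned to aqp-8, an aquaporin gene (128.6), to asp-3, an aspartic protease gene (123.0), and to cpr-6, a cysteine protease gene (90.7). The yolk gene vit-2 had a promoter peak of 100.1 with its summit 54 bp past the 5' end, and ceh-60, a homeobox gene that acts in yolk production, had the body peak described with ets-4. The yolk list has 6 X genes, of which these 2 had a peak.

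Of 7 X chaperone genes, 3 had a promoter peak: hsp-3, pdi-6, a protein disulfide isomerase gene, with 150.3 at 51 bp upstream and a rank of 180 in both replicates, and dnj-14, a J-domain protein gene, with 108.4 at a promoter peak 237 bp upstream of glit-1. The bZIP list had promoter peaks at 2 of its 3 X genes, cebp-1 and atf-6, a factor of the endoplasmic reticulum stress response, which had 134.9 at 300 bp upstream. Single X promoters with a peak were those of vha-12 of the vacuolar ATPase (103.5), lmp-1 of the lysosome membrane (95.1), rpl-11.2 of the large ribosomal subunit (103.8) and the elongation factor eef-1A.2 (100.5). Their lists have 3, 4, 2 and 3 X genes, in that order. The peak of dnj-14 is also the one counted upstream of rpl-25.1, and the autophagy gene atg-2 had an intron peak of 81.8.

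Regulators were present in small numbers. Of 27 X nuclear hormone receptor genes, nhr-35 alone had a promoter peak, and nhr-3, nhr-17, nhr-48 and daf-12, the receptor for dafachronic acids, had a peak in the body or upstream, at 110.7, 134.8, 85.2 and 96.3. The peak assigned to nhr-17 lies beside a tRNA gene. Of 27 X homeobox genes, ceh-37 had a promoter peak of 88.3. Of the 4 ETS genes on X, 2 had a peak, ets-4 itself and ets-5. The stronger ets-5 peak, of 123.5 at 1175 bp upstream, also lies beside a tRNA gene. A weaker peak in the ets-5 body had 82.9 and does not lie beside a tRNA gene. Its summit is 87 bp past the 5' end of cal-5, in the promoter of that gene. Of the 9 X genes in the insulin list, ins-39 had a promoter peak. In that list pdk-1, a kinase of the pathway, and ftt-2, a 14-3-3 protein gene, had upstream peaks of 116.2 and 85.3. The dosage compensation list had no promoter peak at its 6 X genes; besides xol-1, sdc-2, which starts dosage compensation, had a peak of 107.1 at 3432 bp upstream that lies 209 bp from hpo-34.

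Several lists had no X promoter with a peak. These were collagens (0 of 30), neuronal genes (0 of 44), chemoreceptors (0 of 29), detoxification (0 of 15), body-wall muscle (0 of 9), fat storage (0 of 9), bHLH factors (0 of 9) and C-type lectins (0 of 3). Over all X genes the promoter share was 3.99%, so a count of 0 in lists of this size says little. On the autosomes collagens (0 of 136) and neuronal genes (0 of 99) had none either, while each of the other lists named here had at least 1. With body and upstream sequence, 2 of the 44 neuronal genes, 4 of the 29 chemoreceptor genes and 1 of the 9 muscle genes had a peak, and none of the collagen, detoxification, fat storage or bHLH genes. The share over all X genes was then 11.8%. The chemoreceptor genes were srd-42 and srd-43, which share a peak of 111.4 beside a tRNA gene, odr-10, the receptor for diacetyl, with 110.8, and srxa-8 with 107.4. The neuronal genes nlp-76, with 134.8, and sng-1, for synaptogyrin, with 85.5, also have their peaks beside tRNA genes. The muscle gene was unc-98, with 88.3, and the lectin gene clec-266 had an upstream peak of 85.2. No gene of the germline list lies on X.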

How the data were processed

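ChIP-seq regions came from 2 biological replicates of 1 group, as the labels number them. The 4 narrowPeak lists are on build ce11. According to the deposited text files, regions were called against a control file for each replicate and for both pooled, and the IDR list was made out of those 3 lists. The signal is the caller's value as the authors deposited it, unscaled between lists. The deposited -log10 q value was used only for its ceiling, which 1393 pooled regions share. The sources used here do not name the aligner, caller, IDR threshold or read depth, so the precision of a region's signal is unknown.

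Positions and sequences were read from Ensembl release 115 and RefSeq of WBcel235, 1-based, with Python 3.11.15, pandas 2.3.3, numpy 2.4.6, scipy 1.17.1 and matplotlib 3.10.9. An overlap needed 1 bp. Shares were compared by Fisher's exact test, two-sided, with Benjamini-Hochberg adjustment within a family and a threshold of 0.05, and the counting was tested on simulated data. Intervals of shares are Wilson and those of odds ratios exact conditional 95% intervals; both cover counting error only. Named are the genes at the 30 strongest X peaks, listed genes with a peak, the 5 largest replicate gaps in each direction, and the peaks at the list's end. Members, 24 gene lists and 10 words were chosen with earlier results of these data known. Alternatives changed the list, threshold, promoter, distances and window; 3 settings, which give 6 of the recomputed values, were added after seeing the data.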

Additional observations from a re-analysis of the deposited data

How the results depend on the processing

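Of 110 values recomputed under an alternative, 86 kept their direction and side of the threshold of 0.05, 21 reversed the direction of an odds ratio and 3 passed the threshold. The higher kept share of X (odds ratios 1.22 to 1.54), the tRNA difference (3.795 to 5.43), the other small RNA difference (0.0662 to 0.175) and the MEX core difference (16.6 to 67.1) passed under every alternative run on them. Where no autosomal region held the core, 0.5 was added to each count for its odds ratio, and such lists had it in 3.70 to 5.19% of X regions. All alternatives reuse the same data, and the words were chosen with earlier results of these data known. The tRNA and other small RNA ratios take no account of how many such genes X and the autosomes carry. Reversed were only odds ratios that did not pass the test, and the cause was not tested. With 1 replicate alone, the odds ratio ran from 0.744 to 1.09 for promoters, 0.693 to 1.33 for exons, 0.589 to 1.08 for CGGAAG, 0.566 to 0.965 for CACGTG, 0.364 to 1.12 for CCGGAA and 0.681 to 1.33 for CCGGAT. In the stronger part of the list it was 1.60 for exons, 0.871 for support by both replicates, 0.991 for CGGAAG, 0.726 for CACGTG and 1.03 for GAGAGAGA. With a promoter of 2000 bp upstream to 500 bp downstream it was 0.668 for promoters (adjusted p = 0.00725, Fisher's exact test) and 1.75 for intergenic summits (adjusted p = 0.00482), both now past the threshold, and 1.105 for exons and 1.03 for introns. Without peaks near small RNA genes it was 1.04 for introns, and without those beside tRNA genes, an alternative chosen after seeing the data, 1.01 for promoters. With the number of strongest regions raised to 2204 per replicate it was 0.799 for replicate 1 and 0.808 for both. With 25 bp to each side of the summit it was 0.481 for CGGAAG, and with 100 bp 1.16 for CCGGAA, 0.864 for CACGTG and 1.96 for the B-box word, now past the threshold (adjusted p = 0.0474, Fisher's exact test). No paired analysis was possible because there was only 1 group. The lists give no read depth, which limits what single peaks show.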
